A study of Mus musculus with 12 samples.

Results

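Melanocyte and pigment genes were followed in the mouse cochlea as a view of the intermediate cells of the stria vascularis. They comprised 8 genes, Dct, Tyr, Tyrp1, Mlana, Mitf, Gpr143, Slc45a2 and Ednrb, taken by gene symbol from the annotation of the array. These symbols named 18 of the 45281 probes on the array, and 13 of the 18 lay above the median mean level of 5.87 and were tested among 22640 probes. The tissue was whole cochlea of C57BL6j mice, a black inbred strain, with the vestibular organs taken off, at 4, 15 and 45 weeks of age. Each age had 2 pools, a and b, of cochleae combined in groups of 5, and whether the 5 are cochleae or mice is not given. Each pool was read on 2 arrays, which gave 12 arrays from 6 pools. All groups shared strain, tissue and housing, and age was the only labelled difference between them. A pool is written here as its age and letter, so that 45b is pool b at 45 weeks. The labels call the pools biological replicates and say no more of the animals behind them.

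Melanocytes make melanin inside melanosomes. Tyrosinase starts the pathway, dopachrome tautomerase and tyrosinase-related protein 1 act on later intermediates, and the transcription factor MITF drives the genes of these proteins. In the cochlea, pigmented cells of neural crest origin form the intermediate layer of the stria vascularis, between marginal and basal cells, where they are needed for the endocochlear potential. Other melanocytes lie elsewhere in the inner ear, and the array reads them together with the stria.

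A stretch upstream of the 3 melanin enzyme genes shows what they have in common beyond their role. Comparing the 250 bases before the start of Dct, Tyr and Tyrp1, the longest run of letters that all 3 hold on the strand of the gene is the 10 letters GTCATGTGCT. They contain the core of the M-box, a promoter element to which MITF is known to bind. The stretches are 30 bases long, run 5′ to 3′ on the strand of the gene, and carry the match in capitals. They come from RefSeq (GRCm38.p6), at chr14:118052379-118052408 on the minus strand for Dct, chr7:87493516-87493545 on the minus strand for Tyr and chr4:80834155-80834184 on the plus strand for Tyrp1.
Dct: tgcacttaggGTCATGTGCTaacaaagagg
Tyr: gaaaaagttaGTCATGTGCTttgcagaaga
Tyrp1: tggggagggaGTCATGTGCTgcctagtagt
The match began 152 bases before the annotated start of Dct, 23 before that of Tyr and 48 before that of Tyrp1. Searched on both strands, GTCATGTGCT occurred in 51 of 32851 upstream windows of 250 bases in the RefSeq table, which is 0.155%. Tyr and Tyrp1 share 1 letter more, and this longer run, AGTCATGTGCT, occurred in 7 windows (0.0213%) but not in that of Dct. The runs were picked because these genes hold them, so the shares are a description. The core CATGTG within it was common, with 12.3% of windows holding it. For Tyrp1 the start used by the table lies 90 bases inside the annotated gene, so its match may fall in transcribed sequence.

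The whole window of 250 bases is given for Dct and Tyr, whose starts coincide with the ends of their annotated genes. That of Dct spans chr14:118052247-118052496 and that of Tyr chr7:87493513-87493762, both on the minus strand, with the same match in capitals.
Dct window: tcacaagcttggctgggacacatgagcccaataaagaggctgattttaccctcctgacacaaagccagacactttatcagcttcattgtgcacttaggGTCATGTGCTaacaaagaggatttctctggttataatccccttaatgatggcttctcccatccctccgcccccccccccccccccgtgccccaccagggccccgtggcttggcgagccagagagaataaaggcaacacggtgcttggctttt
Tyr window: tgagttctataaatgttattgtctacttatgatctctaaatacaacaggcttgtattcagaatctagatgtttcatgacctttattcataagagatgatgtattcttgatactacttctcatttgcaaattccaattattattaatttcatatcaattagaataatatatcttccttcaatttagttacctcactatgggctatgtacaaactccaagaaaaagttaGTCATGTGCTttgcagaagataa
Windows were at hand for 5 of the 8 genes. Mitf has 3 starts in the table, and the most downstream of them had TGACGTCA, the letters of a cyclic AMP response element, 153 bases before it at chr6:97991619-97991648 on the plus strand.
Mitf: gaaaaaaagcaTGACGTCAagccagcaggg
TGACGTCA occurred in 1.55% of all windows. Neither GTCATGTGCT nor CATGTG nor CACGTG, a second form of the E-box present in 6.02% of windows, was found in the Mitf windows or in that of Ednrb. The Ednrb start used by the table lies 807 bases inside the annotated gene. Its window of 250 bases is therefore within the gene, and the absence there says nothing of the bases before the gene. A match is a description of letters, and no binding was measured.

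No pigment gene passed the test in any comparison of ages. With limma and Benjamini-Hochberg adjustment, 0 of 13 tested probes were called from 4 to 15 weeks, 0 from 4 to 45 weeks and 0 from 15 to 45 weeks. In each of these comparisons the calls over all 22640 probes were also 0% at an adjusted p under 0.05. At an unadjusted p under 0.05 there were 0 member probes from 4 to 15 weeks against 1.33% of all probes, 2 from 4 to 45 weeks against 13.9% (6.65% higher and 7.21% lower), and 1 from 15 to 45 weeks against 8.15% (4.01% higher and 4.14% lower). The 2 from 4 to 45 weeks were 1 probe each of Ednrb and Mitf, both lower at 45 weeks, and the 1 from 15 to 45 weeks was Mlana, higher at 45 weeks. Set beside the background, 2 of 13 and 1 of 13 are near the share of all probes, and these counts are not a result about the pigment genes. The 3 comparisons share pools and are not independent of each other.

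Levels are log2 values as normalized by the authors, and each array has its median at 5.89. The number of pools limits the precision, and the standard error (SE) of a difference had a median of 0.155 over the 13 probes. Since whole tissue was read, fewer pigment cells and less RNA per cell cannot be told apart in any value below.

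Dct encodes dopachrome tautomerase, which converts dopachrome on the way to brown-black eumelanin. Its brighter probe, ILMN_2770040, read 11.96 and 12.01 on the arrays of pool 4a and 12.06 and 11.80 on those of pool 4b. The arrays of pool 15a gave 11.84 and 11.98, those of pool 15b 12.32 and 12.17, those of pool 45a 12.01 and 12.01, and those of pool 45b 12.33 and 12.37. Pools 15b and 45b were the high ones, and the other 4 pools lay between 11.91 and 12.01. The age means were 11.96 ± 0.04 at 4 weeks, 12.08 ± 0.24 at 15 weeks and 12.18 ± 0.24 at 45 weeks (SD, n = 2 pools). The difference between 4 and 45 weeks was 0.22 (SE 0.17, 95% interval -0.18 to 0.63, adjusted p = 0.594), which the gap of 0.34 between the pools of 45 weeks exceeded. Without pool 45b it was 0.06.

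The second Dct probe, ILMN_1251894, was also highest in pool 45b. Its pool means were 10.58 and 10.70 at 4 weeks, 10.70 and 10.72 at 15 weeks and 10.71 and 11.11 at 45 weeks. Here pool 45b alone was high, on both arrays (11.10 and 11.11), while no other array was above 10.89. The difference from 4 to 45 weeks was 0.27 (SE 0.16, adjusted p = 0.485), and 0.07 without pool 45b. Over the 6 pools the Dct probes correlated with r = 0.76, which is a description only, since they read the same RNA on the same arrays.

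Tyr encodes tyrosinase, the enzyme that starts melanin synthesis, and its mutation causes albinism. Its single probe, ILMN_2522236, lay below the level filter. The pools read 5.74 and 5.77 at 4 weeks, 5.72 and 5.72 at 15 weeks and 5.74 and 5.76 at 45 weeks. All 6 values were under the median of the array and overlapped or nearly coincided between the ages. Whether the transcript was present could not be read from it, since a level near the median of all probes does not separate a low transcript from background.

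Tyrp1 encodes tyrosinase-related protein 1, which acts late in eumelanin synthesis in the mouse. Of its 3 probes, only ILMN_1228521 passed the filter. Its arrays gave 6.36 and 6.47 for pool 4a, 6.21 and 6.18 for pool 4b, 6.06 and 6.23 for pool 15a, 6.33 and 7.002 for pool 15b, 6.29 and 6.48 for pool 45a, and 6.49 and 6.47 for pool 45b. A single array of pool 15b was the highest, 0.68 above its partner, and the ages overlapped throughout. Between 4 and 45 weeks the difference was 0.13 (SE 0.19, adjusted p = 0.801), from means of 6.30 and 6.43. The other Tyrp1 probes had pool means of 5.64 to 6.08 (ILMN_1244305) and 5.46 to 5.64 (ILMN_2425003).

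**Figure D1:**
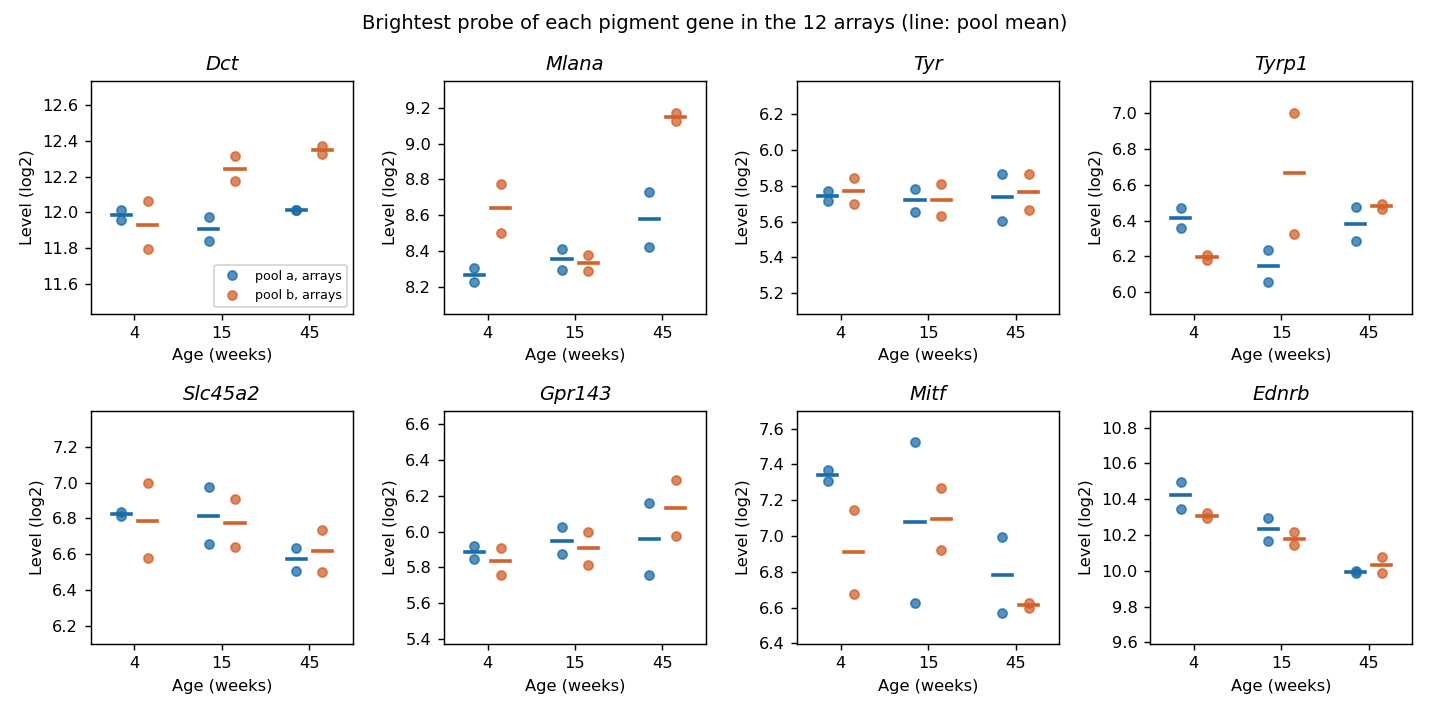
Levels (log2, vertical axes of equal span) of the brightest probe of each of the 8 genes at 4, 15 and 45 weeks. Points are single arrays, lines are pool means, blue is pool a and orange pool b. Ednrb has all 45-week arrays under those of the other ages, Mlana and Dct are high in pool b at 45 weeks, and Tyr lies between 5.60 and 5.87 everywhere.

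Mlana encodes melan-A (MART-1), a protein of early melanosomes that takes part in the maturation of the fibril protein PMEL. Its probe gave 8.23 and 8.30 for pool 4a, 8.50 and 8.77 for pool 4b, 8.41 and 8.30 for pool 15a, and 8.29 and 8.38 for pool 15b. The 45-week arrays gave 8.73 and 8.42 for pool 45a and 9.17 and 9.13 for pool 45b. All 4 arrays of 45 weeks lay above all 4 of 15 weeks, narrowly so at the closest (8.42 against 8.41), while the ages of 4 and 45 weeks overlapped. The age means were 8.45 ± 0.26, 8.34 ± 0.01 and 8.86 ± 0.41 (SD, n = 2 pools). From 15 to 45 weeks the difference was 0.52 (SE 0.21, 95% interval 0.01 to 1.03), a ratio of 1.43, with an unadjusted p of 0.047 and an adjusted p of 0.606. Against 4 weeks it was 0.41 (SE 0.21, adjusted p = 0.444).

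The size of the Mlana difference rested on pool 45b. From 15 to 45 weeks it was 0.23 without pool 45b and 0.81 without pool 45a, and from 4 to 45 weeks 0.12 without pool 45b. Pool 45b also differed from its partner outside the pigment genes. The female-specific transcript Xist read 7.60 in pool 45b and 8.56 in pool 4b against 5.85 to 5.95 in the others. The Y-linked transcript Eif2s3y read 5.65 in pool 45b and 5.53 in pool 4b against 9.54 to 9.81 in the others, by its brightest probe. By these transcripts sex differed between the pools of 4 weeks and between those of 45 weeks. Both pools of 15 weeks read as male, so sex was not balanced over the ages. Pools 4b and 45b were also the pools with the higher Mlana level at their ages. With the Xist level as a covariate, the Mlana difference was 0.36 from 15 to 45 weeks and 0.50 from 4 to 45 weeks. Markers of skin keratinocytes, in whose neighbourhood hair and skin melanocytes live, had a mean level over 4 tested genes of 7.62 to 7.72 at 4 weeks, 7.31 to 7.45 at 15 weeks and 7.77 to 7.88 at 45 weeks, with Krt1 and Krt5 below the filter. Between 15 and 45 weeks limma called 0 of these 4 genes and gave 3 an unadjusted p under 0.05, all 3 higher in both older pools. Over all tested probes 4.01% were higher with an unadjusted p under 0.05, and 19.8% were higher in both older pools. The part of these genes in the Mlana values was not tested.

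Slc45a2 encodes a melanosomal transporter (MATP) that is needed for tyrosinase to work, and it had 4 tested probes. The brightest, ILMN_2985987, had pool means of 6.82 and 6.79 at 4 weeks, 6.81 and 6.78 at 15 weeks and 6.57 and 6.62 at 45 weeks. Both 45-week pools were low and the other 4 close together, but the arrays of 1 pool differed by up to 0.42. The difference from 4 to 45 weeks was -0.21 (SE 0.11, adjusted p = 0.444). The other 3 probes gave -0.11, -0.20 and -0.07 for the same comparison, and each of the 4 was thus lower at 45 weeks, none beyond the threshold. These probes share a target, and their agreement in sign is not 4 separate observations. Over the 6 pools ILMN_2985987 correlated with the other 3 at r = 0.34, 0.67 and 0.0045, and those 3 with each other at r = 0.75 to 0.88. For 2 of them, ILMN_2614421 and ILMN_2746802, pool 45b read 6.58 and 6.54, and of the 45-week pools only 45a lay below both 4-week pools.

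Gpr143 encodes the receptor of ocular albinism type 1, which sits in the melanosome membrane and bears on melanosome size. Its tested probe, ILMN_2691820, had pool means of 5.88 and 5.83 at 4 weeks, 5.95 and 5.91 at 15 weeks and 5.96 and 6.13 at 45 weeks. These values are close to the filter, and both older ages had all pools above those of 4 weeks. At 45 weeks it was higher than at 4 weeks by 0.19 (SE 0.12, adjusted p = 0.521), and the arrays of 1 pool differed by up to 0.40. The second probe, ILMN_1242255, was below the filter at 5.33 to 5.45.

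Mitf encodes the transcription factor that specifies melanocytes and drives the enzyme genes, and it is also used by osteoclasts and mast cells. Its brighter probe, ILMN_1241965, gave 7.31 and 7.37 for pool 4a, 6.68 and 7.15 for pool 4b, 6.62 and 7.53 for pool 15a, and 6.92 and 7.27 for pool 15b. The 45-week arrays gave 6.57 and 6.995 for pool 45a and 6.62 and 6.60 for pool 45b. Both pools of 45 weeks lay below all pools of 4 and 15 weeks, but single arrays of the ages overlapped, and the 2 arrays of pool 15a differed by 0.90. The difference was -0.43 from 4 to 45 weeks (SE 0.16, 95% interval -0.82 to -0.04), with an unadjusted p of 0.036 and an adjusted p of 0.330. From 15 to 45 weeks it was -0.39 (adjusted p = 0.606). From the second arrays alone the 15 to 45 week difference was -0.60, and from the first arrays alone -0.18.

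The other Mitf probe did not follow. ILMN_1241269 had pool means of 5.90 and 6.15 at 4 weeks, 6.09 and 6.33 at 15 weeks and 6.31 and 6.25 at 45 weeks, which is 0.26 higher at 45 than at 4 weeks (SE 0.14, adjusted p = 0.473). Over the 6 pools the Mitf probes correlated with r = -0.68. Mitf has several first exons, and which transcripts each probe reads was not established, so the gene as a whole has no settled direction. Osteoclast markers, a list of 8 genes with 5 tested, had a mean level of 8.94 and 9.08 at 4 weeks, 8.96 and 8.94 at 15 weeks and 8.74 and 8.80 at 45 weeks. This mean was lower at 45 weeks in the same pools as ILMN_1241965, with Atp6v0d2, Ocstamp and Calcr below the filter. From 4 to 45 weeks Mmp9 differed by -0.74 and Acp5 by -0.25, and the other tested markers by less. Both 45-week pools lay below both 4-week pools for 3 of the 5 genes, against 22.5% of all tested probes. The part of the osteoclast markers in the Mitf values was not tested.

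Ednrb encodes the endothelin receptor type B, through which endothelin 3 acts on melanoblasts during their migration, and whose loss gives white spotting and deafness in the mouse. Its brightest probe, ILMN_2589640, gave 10.50 and 10.35 for pool 4a and 10.32 and 10.29 for pool 4b. The arrays of pool 15a gave 10.17 and 10.29, those of pool 15b 10.22 and 10.14, those of pool 45a 9.99 and 10.0003, and those of pool 45b 9.99 and 10.08. Every array of 45 weeks was below every array of 4 and 15 weeks, and the pool means also separated 4 from 15 weeks. The age means were 10.36 ± 0.08, 10.21 ± 0.04 and 10.01 ± 0.03 (SD, n = 2 pools). The difference at 45 weeks from 4 weeks was -0.35 (SE 0.11, 95% interval -0.62 to -0.08), a ratio of 0.783, with an unadjusted p of 0.018 and an adjusted p of 0.291. It was -0.16 from 4 to 15 weeks (adjusted p = 1.00) and -0.19 from 15 to 45 weeks (adjusted p = 0.667).

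The Ednrb difference did not depend on a single pool or array set, although it passed the threshold under no setting. Over all alternatives it ran from -0.42 to -0.28 from 4 to 45 weeks, with adjusted p between 0.095 and 0.862. By its p it stood at place 1376 of 22640 probes. A second tested probe, ILMN_2917471, had pool means of 8.50 and 8.39 at 4 weeks, 8.78 and 8.46 at 15 weeks and 8.23 and 8.60 at 45 weeks, which overlapped (-0.03 from 4 to 45 weeks, SE 0.17, adjusted p = 0.951). The tested Ednrb probes correlated with r = 0.25 over the 6 pools, and the remaining probe, ILMN_2717765, lay below the filter. Ednrb is also known from glia and vessels. Schwann cell markers (3 genes tested) had a mean level of 11.11 and 11.16 at 4 weeks, 11.21 and 11.30 at 15 weeks and 11.30 and 11.25 at 45 weeks. Endothelial markers (5 tested, Kdr below the filter) read 8.34 and 8.01, 8.47 and 8.29, and 7.99 and 8.22 at the same ages, and the part of either list in the Ednrb values was not tested.

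**Figure D2:**
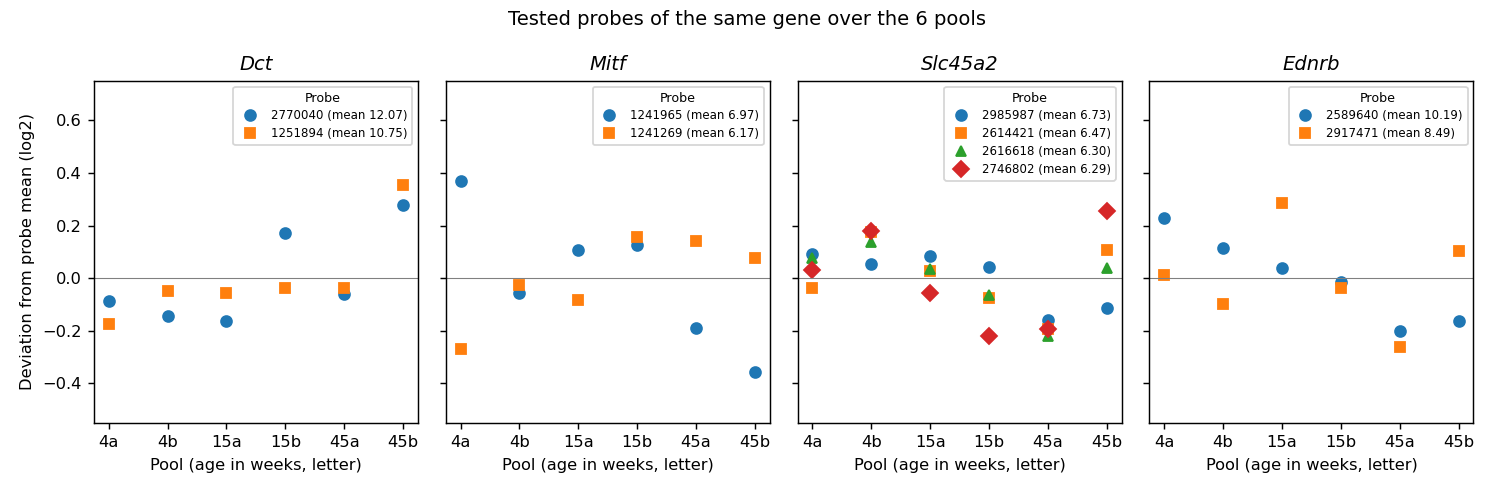
Deviation of each tested probe from its own mean over the 6 pools (log2), for the 4 genes with more than 1 tested probe. The Dct probes share a high pool 45b, the Mitf probes run against each other (r = -0.68), and of the Ednrb probes only ILMN_2589640 separates the ages.

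Seen by direction, the 13 probes were evenly divided. From 4 to 15 weeks 6 were higher and 7 lower, with a median of -0.01 against -0.002 for all tested probes. Pools of the 2 ages did not overlap for 1 higher and 3 lower probes, where 26.4% of all probes did not overlap (12.8% higher and 13.6% lower). The oldest against the youngest age also had 6 higher and 7 lower, with a median of -0.03 against -0.0036. Pools did not overlap for 4 higher and 4 lower probes, against 45% of all probes (22.5% in each direction). From 15 to 45 weeks 7 were higher and 6 lower, with a median of 0.03 against -0.003, and pools did not overlap for 2 higher and 3 lower, against 39.7% (19.8% and 19.9%). Thus 8 of 13 from 4 to 45 weeks is the count furthest from its background share, with both Dct probes, 1 of Mitf and Gpr143 on the higher side and 1 of Mitf, 2 of Slc45a2 and 1 of Ednrb on the lower. Several of these 8 share a target gene.

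**Figure D3:**
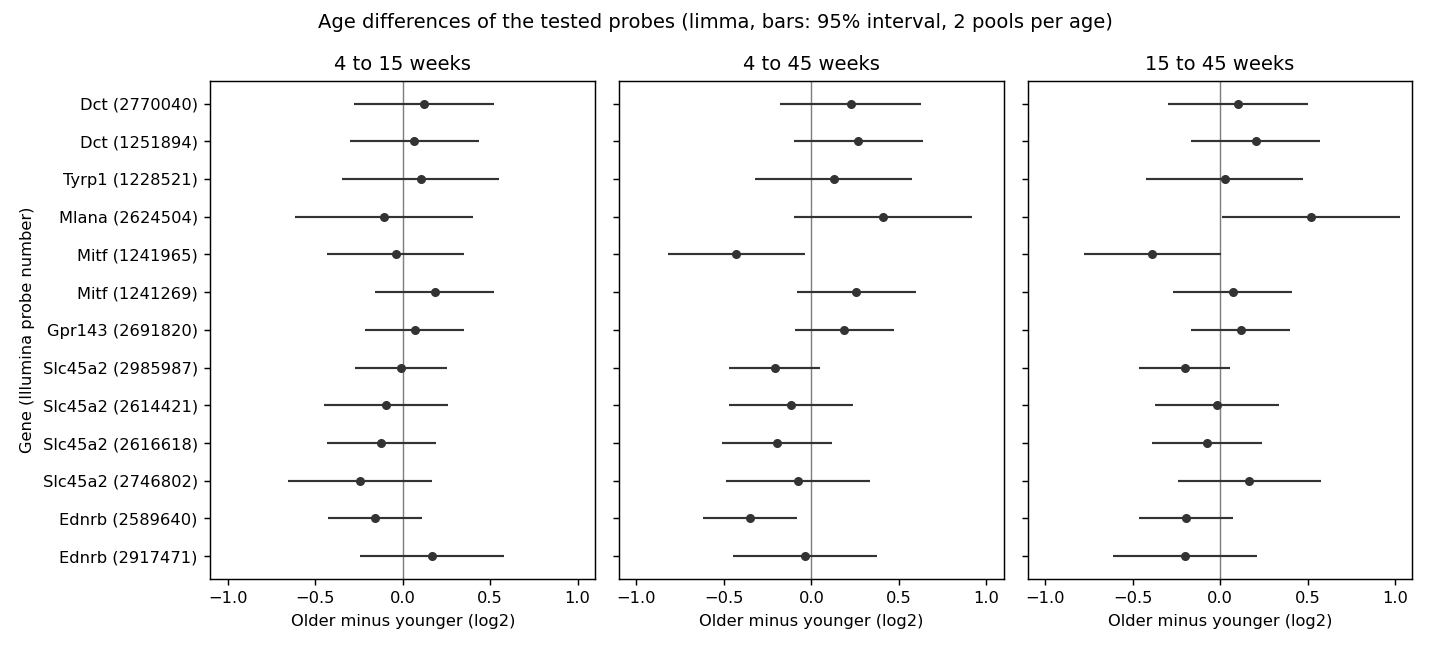
Older minus younger difference (log2) of the 13 tested probes in the 3 comparisons, with limma's 95% interval from 2 pools per age. The intervals of Ednrb ILMN_2589640 and Mitf ILMN_1241965 leave 0 out from 4 to 45 weeks, and that of Mlana from 15 to 45 weeks, before any adjustment for the number of probes.

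Agreement between the pools set the limit for most members. For 10 of the 13 probes the largest gap between the 2 arrays of a pool exceeded the largest difference between age means, and for 8 of 13 the largest gap between the pools of an age did. Ednrb ILMN_2589640 was below both limits, with gaps of 0.15 between arrays and 0.11 between pools against an age difference of 0.35. For Mlana the pool gap (0.57) was above and the array gap (0.31) below the age difference of 0.52. The median array gap of the member probes was 0.06 in pools 4a and 45b and 0.14 to 0.19 in the others, much as over all tested probes (0.09 and 0.10 against 0.16 to 0.19). Pool 45b held the highest level for 5 of the 13 probes, where 22.1% of all tested probes were highest in it. Pool 45a held the highest level for 0 of 13, where 19.9% of all tested probes were highest in it.

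**Figure D4:**
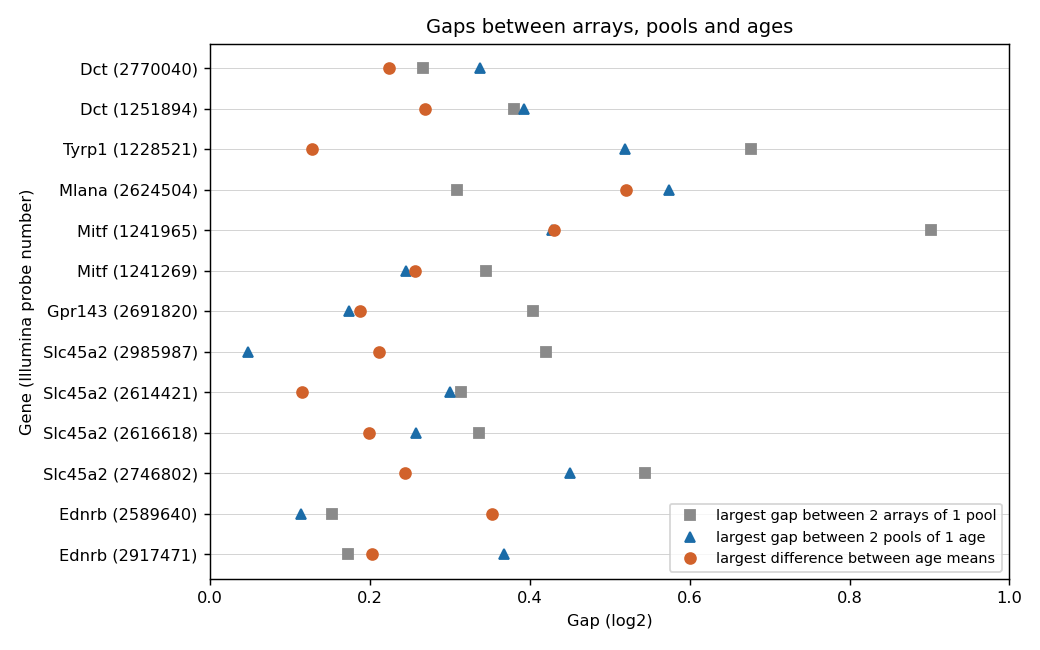
For each tested probe, the largest gap between 2 arrays of a pool (grey squares), between the 2 pools of an age (blue triangles) and between age means (orange circles), in log2 units. Only for Ednrb ILMN_2589640 does the age difference exceed both other gaps, at 0.35 against 0.15 and 0.11.

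Correlations between genes over the 6 pools, by their brightest tested probes, describe which levels moved together. The points share pools and arrays, and only 6 of them exist. Dct went with Tyrp1 (r = 0.80), Gpr143 (r = 0.70) and Mlana (r = 0.58). Ednrb went with Slc45a2 (r = 0.91) and Mitf (r = 0.84), and Mitf with Slc45a2 (r = 0.83). Mlana and Mitf ran in opposite directions (r = -0.90). By these probes the members did not share a single pattern. Tyr had no tested probe and is in none of these values. Mitf enters by ILMN_1241965 only, and its other tested probe ran against that one (r = -0.68). Slc45a2 enters by ILMN_2985987 only, which correlated with the other tested Slc45a2 probes at r = 0.34, 0.67 and 0.0045. Ednrb enters by ILMN_2589640 only, with r = 0.25 to its other tested probe.

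Other genes of pigment cells were read from lists. Of 23 further genes of melanosomes and pigment transport, 19 were tested and 0 were called in either direction in any comparison, with 1, 4 and 1 at an unadjusted p under 0.05 from 4 to 15, 4 to 45 and 15 to 45 weeks, against 1.33%, 13.9% and 8.15% of all tested probes. From 4 to 45 weeks 4 were higher and 15 lower, with a median of -0.08, against -0.0036 for all tested probes. Both older pools lay below both younger ones for 8 of the 19 and above them for 1, against 22.5% of all tested probes in each direction. The medians of the other comparisons were -0.05 from 4 to 15 weeks and -0.12 from 15 to 45 weeks. Rab27a, the GTPase that tethers melanosomes to the actin network and also serves secretion in other cells, had the largest difference of the list from 4 to 45 weeks. It read 10.42, 10.34, 10.18 and 10.56 on the arrays of 4 weeks, 9.59, 10.15, 9.996 and 9.83 at 15 weeks, and 9.76, 9.90, 9.55 and 9.51 at 45 weeks. All arrays of 4 weeks were above all others, and the difference to 45 weeks was -0.69 (SE 0.14, adjusted p = 0.27).

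Gpnmb, a melanosome glycoprotein that macrophages and osteoclasts also make, had pool means of 10.92 and 11.13, 11.40 and 10.48, and 10.09 and 10.74 at the 3 ages. It differed by -0.61 from 4 to 45 weeks (SE 0.33, adjusted p = 0.46), and the pools of 15 weeks were further apart than that. Pmel, which encodes the fibril protein of melanosomes, read 6.97 and 6.57 at 4 weeks, 6.35 and 7.05 at 15 weeks and 6.78 and 6.58 at 45 weeks by its brightest probe, with overlapping ages. Oca2, Slc24a5, Mlph and Lyst lay below the filter, with pool means between 5.55 and 5.999.

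Among 14 other regulators and receptors of melanocytes 9 were tested and 0 were called, with 0, 1 and 1 at an unadjusted p under 0.05. The shares of all tested probes were 1.33%, 13.9% and 8.15%. Comparing 4 with 45 weeks, 4 were higher and 5 lower, with a median of -0.01. Kit, the receptor that melanocytes and mast cells need, read 9.16, 9.24, 9.22 and 9.04 on the 4-week arrays, 9.19, 8.86, 8.95 and 8.87 at 15 weeks and 8.58, 8.54, 8.89 and 8.90 at 45 weeks. Its 45-week arrays were below all 4-week arrays, by -0.44 in the mean (SE 0.15, adjusted p = 0.29). Zeb2, a factor of neural crest cells and many others, had pool means of 10.58 and 9.71, 10.18 and 10.57, and 9.73 and 8.73, and differed by -0.91 (SE 0.39, adjusted p = 0.36). In Zeb2 the pools of 45 weeks were further apart than the means of 4 and 45 weeks. Edn3 and Kitl, which encode a ligand of the Ednrb receptor and a ligand of the Kit receptor, were below the filter, as were Pax3, Mc1r and Tfeb.

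The data do not tie these readings to the stria. Of 5 genes listed for intermediate cells apart from pigment, the annotation named no probe for Kcnj10 and Kcnj13, and Met lay below the filter at 5.48 to 5.64. Ptgds read 12.68 and 12.96, 13.04 and 12.70, and 12.79 and 12.94, and Nrp2 7.13 and 6.996, 6.91 and 6.90, and 6.54 and 7.20 at the 3 ages. Both overlapped between 4 and 45 weeks. Dct and Mlana, which mark pigment cells, were well above the array median in all 6 pools, whereas the probe of Tyr was not, so the genes are described here as pigment genes of the whole cochlea. Their neighbours in the stria gave 0 calls as well, with 0, 2 and 2 of 6 marginal cell genes and 0, 2 and 1 of 4 basal cell genes at an unadjusted p under 0.05 in the order of the comparisons above. Over all tested probes these shares were 1.33%, 13.9% and 8.15%, and with so few genes the counts are a description. Kcne1, a potassium channel subunit of marginal cells, read 9.16 and 9.31, 9.19 and 9.65, and 9.87 and 9.93, a difference of 0.67 from 4 to 45 weeks (SE 0.17, adjusted p = 0.27). Slc12a2, the basolateral chloride cotransporter of the same cells, differed by -0.39 (SE 0.11, adjusted p = 0.28). In basal cells Tjp1, a tight junction protein, differed by -0.43 (SE 0.12, adjusted p = 0.28) and Nr2f2 by -0.44 (SE 0.15, adjusted p = 0.30).

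Pituitary hormone genes stood apart at 45 weeks. The mean level over 5 such genes was 5.64 to 6.02 in the pools of 4 and 15 weeks and 8.59 and 9.07 at 45 weeks, with Lhb and Fshb below the filter. Since the filter uses all 12 arrays, Tshb, Cga and Pomc passed it only through their 45-week levels. At 4 and 15 weeks Tshb read 5.45 to 5.56 and Cga 5.43 to 5.61, so the size of this mean is a description. Pomc read 5.60 to 5.92 at 4 and 15 weeks, with 5.92 in pool 4b. It read 6.64 in pool 45a and 5.88 in pool 45b, and was not high in both 45-week pools. Growth hormone (Gh) read 11.87 in pool 45a and 11.70 in pool 45b. The mean of the hormone genes was high in the same pools in which Ednrb and Mitf ILMN_1241965 were low, and their part in the pigment gene values was not tested. Over the tested probes, arrays of 1 pool correlated with r of 0.983 to 0.997, different pools of 1 age with a median of 0.978 and different ages with a median of 0.977.

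Genes whose levels followed the pigment genes most closely were sought over the 6 pools. A profile was made as the mean deviation of 5 probes, the brightest tested ones of Dct, Tyrp1, Mlana, Gpr143 and Slc45a2. It stood at -0.06 and -0.06 at 4 weeks, -0.10 and 0.05 at 15 weeks, and -0.04 and 0.21 at 45 weeks, so that pool 45b stood furthest from the rest. Of 19202 named probes of other genes, 106 correlated with it above 0.9 and 176 below -0.9, which with 6 points is no sign of a link. The 10 closest were Rgp1 (r = 0.99), Smco3, Mfap2, Lman1l, Olfml3, Exoc3l4, Crtap, Wnt4, Kdm4a and Mfap4 (r = 0.97). Crtap read 8.66 and 8.72, 8.58 and 8.94, and 8.90 and 9.49 at the 3 ages, and Olfml3 10.48 and 10.55, 10.52 and 10.70, and 10.54 and 11.02. Each was highest in pool 45b, as the profile was. Of the members, Dct ILMN_2770040 was closest to the profile (r = 0.96), but it is 1 of the 5 probes averaged into it. Slc45a2 ILMN_2985987, although also part of the profile, ran against it (r = -0.54).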

How the data were processed

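RNA of 12 arrays was analysed, 2 technical arrays of each of 2 pools at 4, 15 and 45 weeks. The deposited table holds log2 values that the authors normalized between arrays. The sorted columns of all arrays are identical, so 1 distribution was forced on each, and a shift of most transcripts in 1 direction would not be seen. The sources used here do not give the software, the background correction or the genome build of the array. Of a second table, 12 value columns and 12 detection columns match no sample label and were not used, so the planned start from it was not run and no statement on detection is made.

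Probes were named from the platform annotation (34885 with 1 symbol, 34807 of them matched to RefSeq). The arrays of a pool were averaged. The probes whose mean level passed the median were tested in 1 model over the 3 ages by limma's lmFit, contrasts.fit and eBayes (limma 3.58.1, R 4.3.3; degrees of freedom 3 residual, 3.84 prior). An adjusted p (Benjamini-Hochberg over 22640 probes) under 0.05 was a call, and differences are older minus younger. Probes of 1 gene were kept apart. The test was run on simulated data with known changes first. Since the labels do not name the animals, p-values measure the spread between these pools.

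The members and gene lists were chosen with earlier results of these data known. All member probes are named. Of each list, the 2 genes with the largest difference from 4 to 45 weeks and the low defining markers could be named, as could the 10 genes with the highest r to the pigment profile. Lists were counted by the brightest probe of a gene. Motifs were searched on both strands in the 250 bases before each RefSeq start. The letters a and b were not shown to pair pools across ages: the pool differences (a minus b) correlated over probes with r = -0.11, 0.18 and -0.39 between ages.

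Alternatives were dropping the level filter or setting it at the 75th percentile, fitting the 12 arrays singly with pool as random effect (correlation 0.296), either technical array by itself, the letter as a replicate block, leaving out a pool, fitting only 2 ages, eBayes with trend and robust options, weights per array, normexp (offset 16), cyclic loess, and Xist as a covariate.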

Additional observations from a re-analysis of the deposited data

How the results depend on the processing

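In all 18 alternatives 0 member probes were called in every comparison. As none was called in the main test either, any sign that turned was that of an uncalled difference. Signs did turn for several probes, among them Tyrp1 ILMN_1228521 in 3 of 17 alternatives from 4 to 15 weeks. The 4 to 45 week differences of the brightest probes of Dct, Mlana, Mitf and Ednrb kept their sign throughout. With the pool letter as a replicate block the members' calls were 0 and their medians -0.01, -0.03 and 0.03 for 4 to 15, 4 to 45 and 15 to 45 weeks. The members' median from 4 to 45 weeks was 0.22 with a filter at the 75th percentile, which leaves fewer member probes, and ran from -0.22 (without pool 45b) to 0.15 (without pool 45a) when each pool was left out. A pool left alone at its age was assumed to vary like the others.

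Over all tested probes the calls from 4 to 15, 4 to 45 and 15 to 45 weeks were 2, 183 and 6 when the 12 arrays were fitted singly with pool as random effect. From 4 to 45 and 15 to 45 weeks they were 1 and 1 with the second technical array alone, 2 and 2 with eBayes trend and robust options, and 1 and 2 with normexp correction. From 4 to 45 weeks they were 1 with only the 2 ages compared. When each pool was left out they ran from 0 to 12 from 4 to 45 weeks and from 0 to 12 from 15 to 45 weeks, with 12 in both without pool 45b. The fit of single arrays takes the 2 arrays of a pool as separate values (correlation 0.296), so its counts do not rest on replicate pools alone. The cause of the differences between settings was not tested. The start from the table without normalization was not run, since its columns match no label, and with 2 pools per age the design limits every count.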
